A study of Mus musculus with 15 samples.

Results

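Mouse embryonic stem cells that had lost STAG1 for the long term were compared with cells that had lost most of their Stag1 RNA for only 48 h. The long-term group was a Stag1-/- line treated with siGLO, a transfection control, and the short-term group was wild-type cells treated with siStag1, an siRNA pool against Stag1. The 2 groups were taken by their labels and held 6 of the 15 RNA-seq libraries of the series, 3 per group. The other 9 libraries were wild-type siGLO, Stag2-/- siGLO and Stag2-/- siStag1, 3 of each, and serve here as reference levels. All 15 were poly-A libraries from the male v6.5 line grown on gelatin, and in every group the siRNA was given at 50 nM and the cells were collected 48 h later. All 3 Stag1-/- libraries came from 1 CRISPR clone, so genotype, clonal history and the siRNA received differed together between the groups and their parts cannot be told apart.

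Cohesin is a ring of SMC1A, SMC3 and RAD21 that holds DNA, extrudes loops and keeps sister chromatids together. Each ring carries a STAG subunit, STAG1 or STAG2 in somatic and embryonic stem cells and STAG3 in meiotic cells. NIPBL and MAU2 load the ring, WAPL (Wapal) releases it, and CTCF sets where loops end. Embryonic stem cells express STAG1 and STAG2 together, and cultures of them hold minor fractions of cells in other states, among them cells resembling primitive endoderm and the 2-cell embryo.

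The Stag1-/- clone carries a homozygous in-frame deletion inside exon 7 of Stag1, which per the study leaves the transcript in place while no protein is detected. Stag1 lies at chr9:100597798-100959375 on the plus strand of mm10 (ENSMUSG00000037286.15). Exon 7 of 34, all coding, spans chr9:100786492-100786696 (mm10, GENCODE M21 annotation) and is shown because the edited stretch is within it, so that its remaining bases and the other exons still give reads.
Stag1 exon 7, reference: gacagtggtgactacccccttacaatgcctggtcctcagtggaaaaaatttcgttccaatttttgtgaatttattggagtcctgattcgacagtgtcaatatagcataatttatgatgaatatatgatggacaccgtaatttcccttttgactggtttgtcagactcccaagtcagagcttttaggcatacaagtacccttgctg

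Stag1 RNA was checked first. In normalized counts (counts scaled to a common effective library size), Stag1 stood at 1826, 2368 and 1875 in Stag1-/- siGLO, 517, 456 and 353 in wild-type siStag1, and 2288, 2137 and 2012 in wild-type siGLO. The knockdown libraries were low and overlapped with neither other group. The knockout libraries spanned the wild-type siGLO range, with 1826 and 1875 below it and 2368 above it. The siRNA left 20.6% ± 3.87 (SD, n = 3) of the wild-type siGLO level, and Stag1 RNA was 4.58-fold higher in the knockout than in the knockdown (log2 fold change 2.20, SE 0.14, edgeR adjusted p = 8.93e-08). A two-sided exact permutation test of the same 3 against 3 values gave p = 0.1, the smallest it allows. Between Stag1-/- siGLO and wild-type siGLO the log2 difference was -0.09 (edgeR adjusted p = 0.728). The gene-level count thus checked the knockdown and could not check the knockout.

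**Figure D1:**
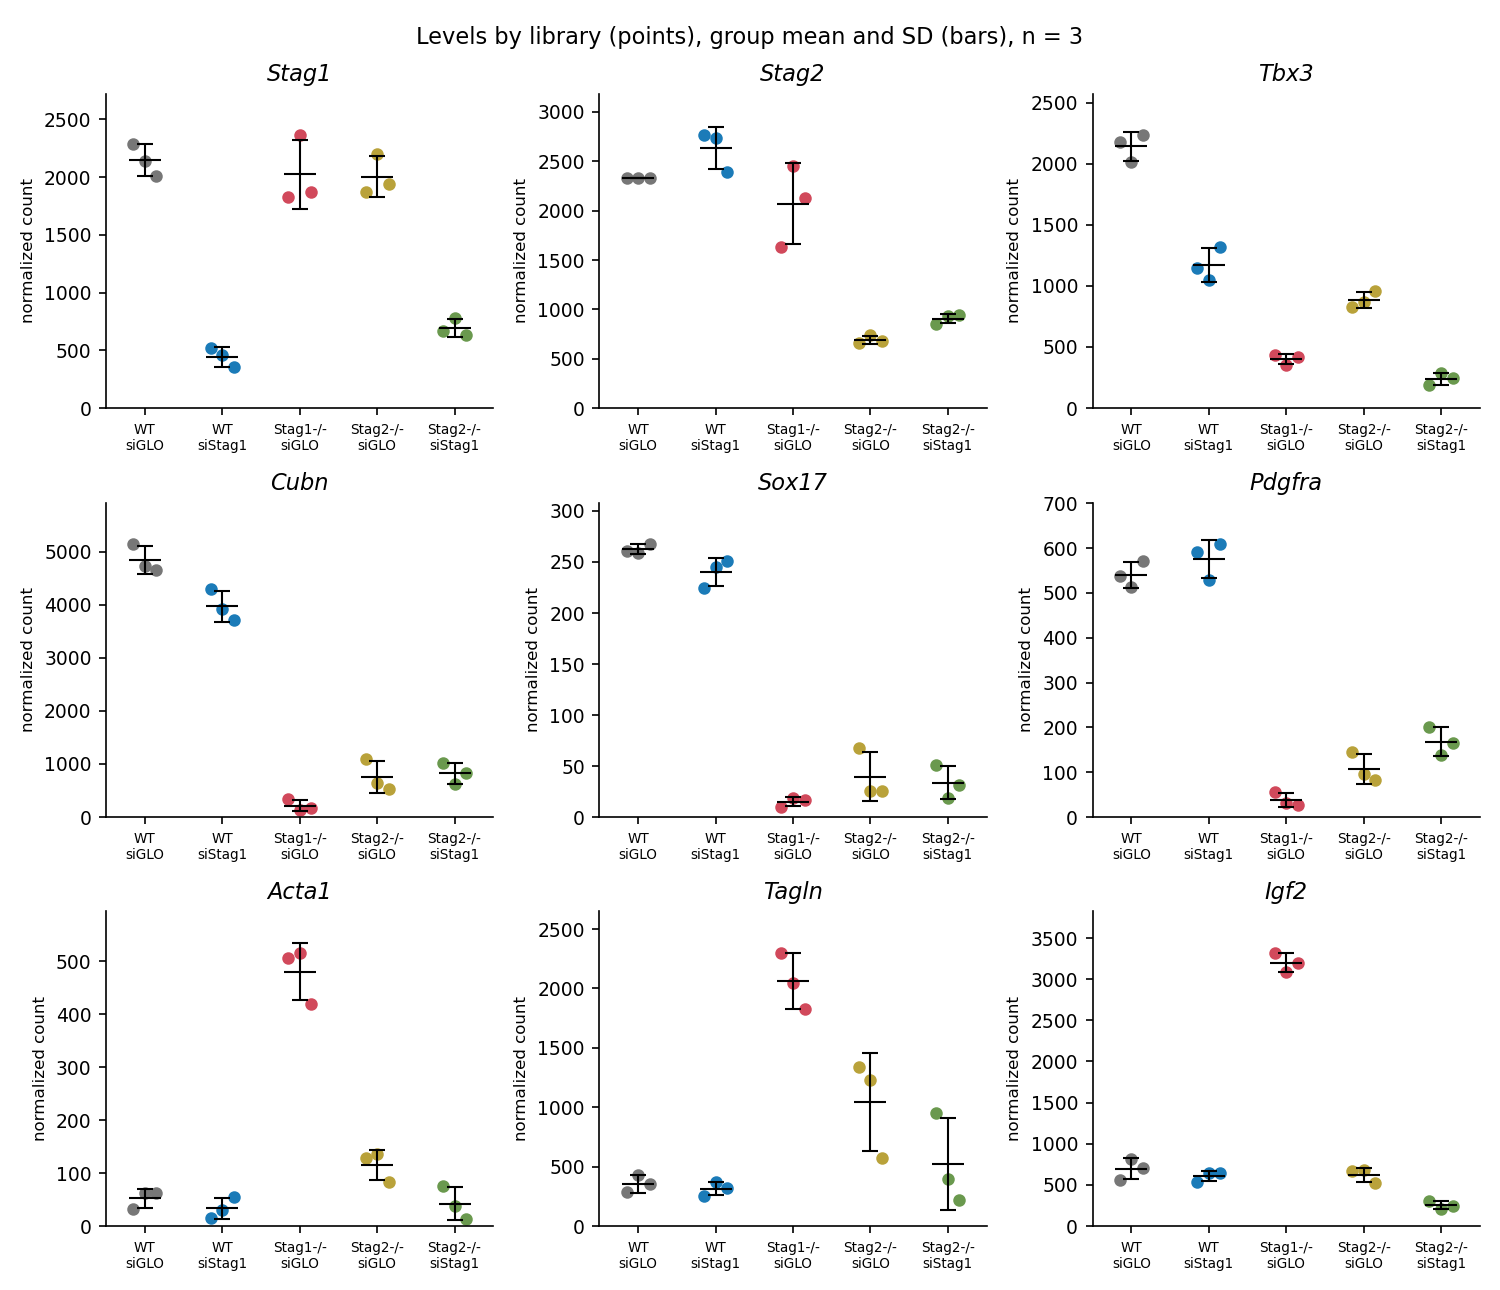
Normalized counts (vertical, linear axes from 0, a scale for each gene) of Stag1, Stag2, Tbx3, Cubn, Sox17, Pdgfra, Acta1, Tagln and Igf2 in wild-type siGLO, wild-type siStag1, Stag1-/- siGLO, Stag2-/- siGLO and Stag2-/- siStag1; points are libraries, and black bars are the mean and SD of 3. Stag1 is low only under siStag1, Cubn, Sox17 and Pdgfra are low in Stag1-/- siGLO and in both Stag2-/- groups, and Acta1, Tagln and Igf2 are highest in Stag1-/- siGLO.

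Stag2, the paralogue that remains in both groups, stood at 1634, 2452 and 2128 normalized counts in the knockout and 2771, 2737 and 2393 in the knockdown. The groups overlapped. Its log2 difference, knockout minus knockdown here and below, was -0.35 (SE 0.11, edgeR adjusted p = 0.0628), and this call was lost without knockout replicate 1 (-0.20, adjusted p = 0.242), knockdown replicate 1 (-0.31, 0.186) or knockdown replicate 2 (-0.32, 0.186). Of the 3 meiotic subunits tested, 2 fell and Rec8 did not pass (0.13, edgeR adjusted p = 0.762). Stag3 was 958 ± 50.4 against 1566 ± 176 (SD, n = 3; -0.71, edgeR adjusted p = 0.00803) and Smc1b 142 ± 33.0 against 335 ± 32.4 (-1.23, adjusted p = 0.00216). The core ring did not pass the test: Rad21 differed by 0.13 (edgeR adjusted p = 0.253), Smc1a by 0.07 (0.629) and Smc3 by -0.02 (0.913). Of the 15 loaders, releasers and other cohesin regulators 0 passed in edgeR, where 16.0% of all genes did (1 at an unadjusted p under 0.05, 1 in DESeq2), with Nipbl at -0.10 (edgeR adjusted p = 0.507) and Ctcf at -0.13 (0.387). With the replicate number as a block, Mau2, at -0.22, reached an adjusted p of 0.0457 from 0.107.

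Of 23412 genes listed, 19494 had a count and 14508 passed the expression filter. Counts on genes per library ran from 18097628 to 19070126 in the knockout, 14982560 to 18960898 in the knockdown, and 17126806 to 19005726 in wild-type siGLO. With edgeR's quasi-likelihood test at a Benjamini-Hochberg adjusted p under 0.1, 2326 genes, 16.0% of those tested, differed between the knockout and the knockdown, 1192 higher (8.22%) and 1134 lower (7.82%) in the knockout. The median absolute log2 difference of the called genes was 0.62, and 647 of them exceeded 1, 279 upward and 368 downward. The 3 values of one group lay wholly above or below those of the other at 32.4% of all genes tested, and at 2269 of the called genes. With the replicate block 3850 genes were called (26.5%), including all 2326. Leaving out a library gave 1464 genes without knockdown replicate 2, 1472 without knockdown replicate 3 and 1515 without knockout replicate 1. The labels do not say whether replicates were separate cultures, and the study calls the wild-type and knockout ones biological replicates, grown from a single clone per genotype, so these p-values measure the spread between such libraries.

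**Figure D2:**
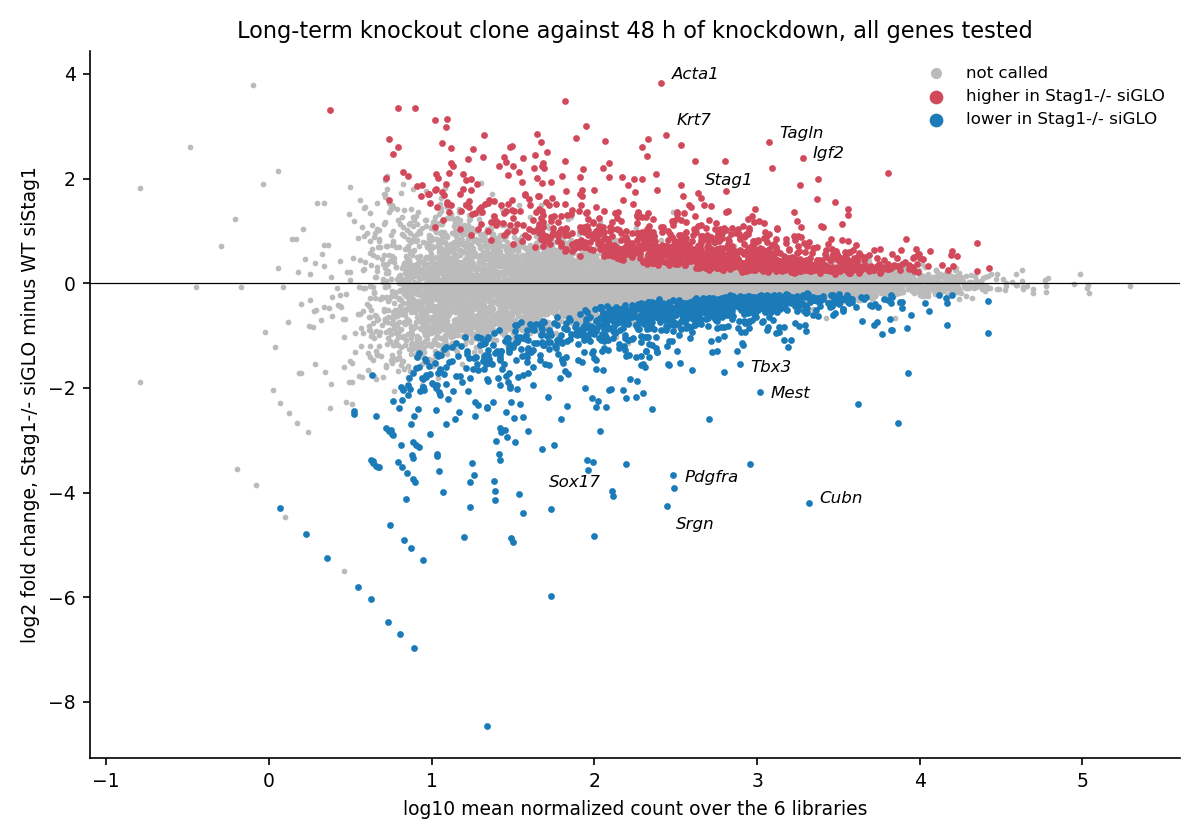
Log10 of the mean normalized count over the 6 libraries (horizontal) against the log2 fold change of Stag1-/- siGLO over wild-type siStag1 (vertical), with a point for each gene tested that had a count in these libraries, called genes coloured by direction and some named genes labelled. Primitive endoderm genes such as Cubn and Pdgfra lie far below 0, and Stag1, Acta1 and Igf2 lie above it.

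Wild-type siGLO was in neither group compared, though its libraries entered the shared estimate of spread. At each called gene its mean log2 level was placed on a scale running from 0 at wild-type siStag1 to 1 at Stag1-/- siGLO. Its median position was 0.057, with quartiles at -0.140 and 0.263, and it lay nearer to the knockdown at 2097 of the 2326 genes, 90.2% (88.3% of the genes called with only the libraries compared). The share was 89.0% at genes higher in the knockout and 91.4% at genes lower in it. Taken one library at a time, wild-type siGLO lay nearer to the knockdown at 84.7%, 87.0% and 84.3% of the genes. It passed beyond the knockout at 25 genes. Stag2-/- siGLO lay nearer to the knockdown at 52.8% of the called genes, with a median position of 0.453, and Stag2-/- siStag1 at 52.9%, with a median of 0.438.

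**Figure D3:**
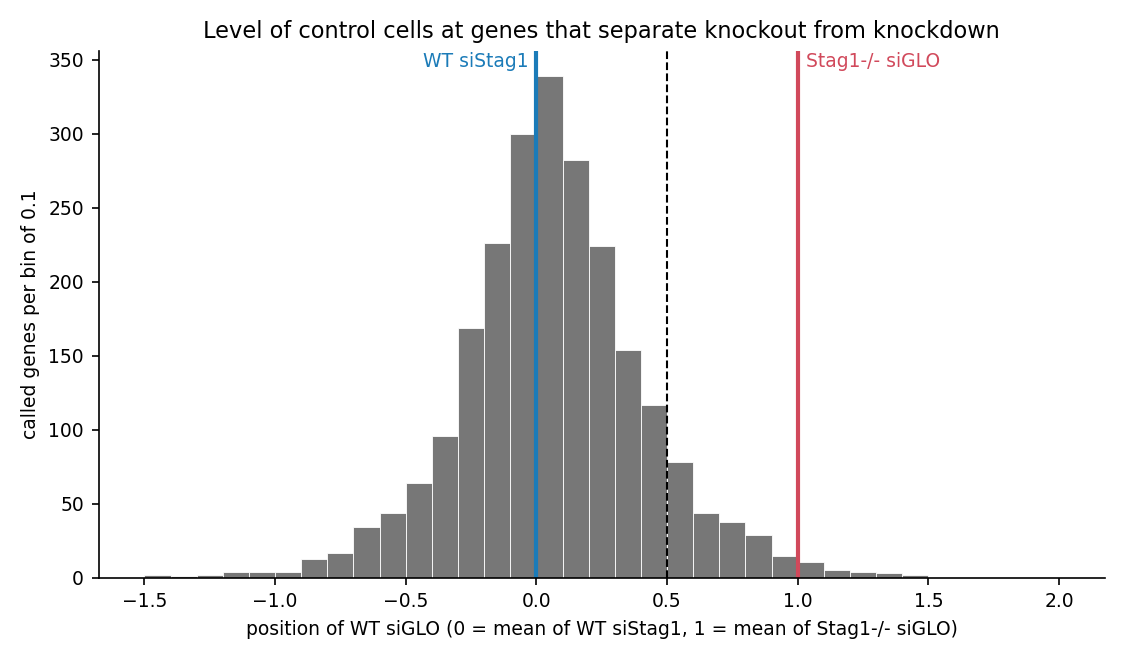
Number of called genes per bin of 0.1 (vertical) by the position of wild-type siGLO (horizontal, no unit) on the scale from wild-type siStag1 at 0 (blue line) to Stag1-/- siGLO at 1 (red line), with the midpoint dashed and 1 gene outside the range drawn. The values gather around 0, with a median of 0.057, and few lie beyond the midpoint.

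The comparisons with wild-type siGLO each share 3 libraries with the main comparison, so their values, here and below, are not independent of it. Stag1-/- siGLO differed from wild-type siGLO at 2907 genes (20.0%), 1466 higher (10.1%) and 1441 lower (9.93%). Wild-type siStag1 differed from wild-type siGLO at 36 genes (0.248%), 15 higher (0.103%) and 21 lower (0.145%), with 922 at an unadjusted p under 0.05. The latter count rose to 236 with the replicate block (1.63%) and to 133 in DESeq2, and fell to between 1 and 15 when a single library was left out.

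Genes lower in the knockout included those of primitive endoderm, the extra-embryonic lineage that lines the yolk sac and lays down its basement membrane. All 15 members of that list were tested and all 15 fell, where 7.82% of all genes did, with a median log2 difference of -2.83 (-0.0078 over all genes tested). Against wild-type siGLO the median was -3.06 in the knockout and -0.09 in the knockdown, where 0 members were called in edgeR or DESeq2 and 0 had an unadjusted p under 0.05. The summed level of the list was 16350 to 21725 normalized counts in the knockout libraries, 59654 to 61844 in the knockdown and 64904 to 66122 in wild-type siGLO. In these bulk libraries fewer cells of a type and less RNA per cell cannot be told apart.

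Cubn, which encodes the endocytic receptor cubilin (chr2:13276338-13491813, minus strand, mm10), stood at 334, 141 and 178 normalized counts in the knockout and at 4290, 3911 and 3713 in the knockdown. Wild-type siGLO was higher still, at 5152, 4721 and 4660. The knockout was 18.3-fold below the knockdown (log2 -4.19, SE 0.30, edgeR adjusted p = 3.72e-07), and no knockout library came near the other groups. Pdgfra, the receptor for platelet-derived growth factor that marks this lineage, stood at 56.1, 32.1 and 27.1 against 591, 529 and 610, a log2 difference of -3.91 (SE 0.25, edgeR adjusted p = 8.93e-08). Wild-type siGLO (539, 513 and 571) overlapped with the knockdown libraries. Sox17, an endoderm transcription factor, stood at 9.84, 18.5 and 17.2 against 225, 245 and 251, and Srgn, which encodes the proteoglycan serglycin, at 31.5, 19.5 and 32.5 against 466, 533 and 598. Their log2 differences were -3.97 (SE 0.37, edgeR adjusted p = 4.26e-06) and -4.25 (SE 0.31, adjusted p = 4.12e-07).

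Other members of the list fell by less. Dab2, an endocytic adaptor, was 152 ± 38.8 against 1659 ± 80.3 normalized counts (n = 3; log2 -3.45), and Gata4, a zinc-finger factor of this lineage, 143 ± 41.4 against 868 ± 111 (-2.60, edgeR adjusted p = 3.72e-07). Among the matrix genes, Col4a1, a type IV collagen chain, went from 12726 ± 249 in the knockdown to 2009 ± 425 in the knockout (-2.66), and Lama1, the laminin α1 chain, from 13063 ± 716 to 3994 ± 420 (-1.71). Sparc (-0.90) and Lamb1 (-0.86) moved least. The letters GATAA, part of the site read by GATA factors, were sought on either strand of RefSeq promoter windows (300 bases, 250 before to 50 after the start site). A gene counted if any of its windows held them. They occurred at 20.0% of the 10 list genes in the RefSeq table, Dab2 and Foxa2, and at 18.8% of 10611 tested genes. Dab2 has 2 windows and Foxa2 has 3.

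The same genes were low in Stag2-/- siGLO, which shares no library with the main comparison: Cubn averaged 750 ± 298 normalized counts there, Pdgfra 108 ± 32.9, Sox17 39.6 ± 24.3 and Srgn 106 ± 52.1 (SD, n = 3). Against wild-type siGLO their log2 differences in Stag2-/- siGLO were -2.69, -2.33, -2.72 and -2.39. The summed list was 14050 to 21318 in Stag2-/- siGLO and 13589 to 19944 in Stag2-/- siStag1, so that a further 48 h of siStag1 left the ranges overlapping.

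Several of the largest falls lay outside the list. Hkdc1, a hexokinase-related enzyme, stood at 11.8, 7.79 and 0.904 normalized counts in the knockout and 186, 188 and 207 in the knockdown. The groups did not overlap. Ctsh, a lysosomal protease, differed by -4.07 and 9930013L23Rik by -3.57. Klb, the co-receptor β-Klotho for endocrine fibroblast growth factors, had 1, 1 and 3 counts in the knockout libraries and 99.1, 104 and 118 normalized counts in the knockdown. Enpep, an aminopeptidase, had 0, 3 and 2 counts in the knockout and 31.5, 37.7 and 30.0 normalized counts in the knockdown.

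Genes of the 2-cell-like state, in which a minor fraction of stem cells briefly expresses transcripts of the early embryo, also had lower counts. Of 16 listed, 11 passed the expression filter, none with 10 counts in every library compared. They passed through the groups in which they were high, so their calls in the knockout are given no count. Their sum was 23.4 to 58.8 normalized counts in the knockout, 243 to 536 in the knockdown and 474 to 1310 in wild-type siGLO. Zscan4a, a SCAN-domain zinc-finger gene, stood at 4.92, 8.76 and 6.33 in the knockout, 73.4, 40.5 and 25.2 in the knockdown and 232, 92.5 and 86.1 in wild-type siGLO. For this gene the 3 groups did not overlap. Zscan4 and Usp17l genes are near-identical copies, so their single counts are uncertain and the sum is the safer value. By the sum, the knockdown (243 to 536) and wild-type siGLO (474 to 1310) overlapped, and the knockout lay below both.

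Of 18 germline genes tested, 12 were lower in the knockout (66.7%, against 7.82% of all genes) and none higher, with a median log2 difference of -0.85. The summed level was 3855 to 4330 normalized counts in the knockout, 6318 to 6770 in the knockdown and 4447 to 5211 in wild-type siGLO, so that the knockdown libraries stood highest. Against wild-type siGLO 1 member was called in the knockdown, where 0.248% of all genes were, and 7 with the replicate block, where 1.63% were. Dazl, an RNA-binding protein of germ cells, stood at 81.7, 122 and 94.9 in the knockout, 228, 264 and 298 in the knockdown and 234, 244 and 213 in wild-type siGLO. There the knockout was low and the knockdown overlapped with wild-type siGLO (knockout minus knockdown -1.41, edgeR adjusted p = 3.29e-05). Ddx4, the germ-cell RNA helicase Vasa, showed the other pattern: 617, 728 and 665 in the knockout, 1014, 1220 and 1124 in the knockdown and 656, 795 and 750 in wild-type siGLO. It rose by 0.61 in the knockdown against wild-type siGLO (edgeR adjusted p = 0.0348), by 0.47 with siStag1 in Stag2-/- cells (adjusted p = 0.0212), and differed by -0.13 in the knockout (adjusted p = 0.469). The wild-type call was lost without any one of the 6 libraries behind it (adjusted p 0.106 to 0.238).

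Tex11, an X-linked meiotic gene outside the list, followed Ddx4. It stood at 188, 199 and 189 normalized counts in the knockout, 409, 402 and 426 in the knockdown and 259, 201 and 235 in wild-type siGLO. Its difference was -1.10 between knockout and knockdown (edgeR adjusted p = 6.35e-05), and siStag1 changed it by 0.83 in wild-type cells (adjusted p = 0.0306) and by 0.97 in Stag2-/- cells (adjusted p = 0.000522). The wild-type call was lost without any one of the 3 knockdown libraries or of wild-type siGLO replicates 2 and 3, with adjusted p between 0.116 and 0.218. Mov10l1, a helicase of the piRNA pathway, stood at 256, 254 and 245 against 520, 500 and 539 in the knockdown, -1.05 (edgeR adjusted p = 9.33e-05). Stk31 (-1.13) and Sycp1, of the synaptonemal complex (-1.05), also fell.

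Of 19 genes in a list of p53 (Trp53, which did not pass, at 0.09) and its targets, 7 were lower and 1 higher in the knockout (42.1% called, against 16.0% of all genes), with a median of -0.28. Cdkn1a, the cell-cycle inhibitor p21, was 629 ± 78.4 against 1068 ± 120 normalized counts (n = 3; log2 -0.76, edgeR adjusted p = 0.0111). Btg2, an antiproliferative target, was 632 ± 98.7 against 1038 ± 136 (-0.72, adjusted p = 0.0121), with wild-type siGLO at 730 ± 164. The 8 calls became 5 without knockout replicate 1 or knockdown replicate 3, and the rise of Perp (0.59, edgeR adjusted p = 0.0995) was lost without knockout replicate 1 or 2 or knockdown replicate 1 or 3 (adjusted p 0.178 to 0.292).

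Genes higher in the knockout included those of the actin cytoskeleton and targets of SRF, a transcription factor that follows the pool of free actin. Of 18 tested members, 14 rose and 1 fell, where 8.22% and 7.82% of all genes did, with a median log2 difference of 0.68. In the knockdown against wild-type siGLO the median was -0.00, and 0 members were called in edgeR or DESeq2 (1 at an unadjusted p under 0.05). The sum was 101893 to 132400 normalized counts in the knockout, 72495 to 88120 in the knockdown, 71887 to 88277 in wild-type siGLO and 98665 to 120489 in Stag2-/- siGLO. SRF binds the CArG box, CC followed by 6 A or T bases and GG, a pattern that is its own reverse complement. An exact match to this pattern was present in the promoter windows of 7 of the 14 list genes in the RefSeq table (50.0%). It was present at 1.56% of 10611 tested genes and 1.81% of 27025 genes in the table. The list was drawn up from known SRF targets, so this excess is set by the choice of list. The 7 were Acta1, Actc1, Actg1, Cnn2, Myl9, Srf and Vcl. The windows of Acta1 (chr8:123894726-123895025, minus strand), Myl9 (chr2:156775214-156775513, plus strand) and Acta2 (chr19:34255324-34255623, minus strand) are given 5′ to 3′ from RefSeq on GRCm38.p6, with exact matches in capitals. The Acta2 window holds no exact match, but ccctatatgg and ccttgtttgg in it each differ from the pattern by 1 base. Such near matches, among them ccatatacgg in the Acta1 window, were not counted.
Acta1 promoter: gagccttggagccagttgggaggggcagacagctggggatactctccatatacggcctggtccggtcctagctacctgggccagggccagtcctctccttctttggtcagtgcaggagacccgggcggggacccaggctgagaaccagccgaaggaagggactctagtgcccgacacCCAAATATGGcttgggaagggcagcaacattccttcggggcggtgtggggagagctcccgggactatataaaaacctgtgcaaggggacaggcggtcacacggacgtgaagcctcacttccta
Myl9 promoter: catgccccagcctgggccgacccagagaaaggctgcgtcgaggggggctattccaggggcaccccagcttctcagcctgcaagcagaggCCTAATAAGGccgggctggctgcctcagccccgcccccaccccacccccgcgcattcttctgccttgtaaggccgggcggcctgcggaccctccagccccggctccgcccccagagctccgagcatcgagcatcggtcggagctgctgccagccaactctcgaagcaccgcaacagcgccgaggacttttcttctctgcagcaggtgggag
Acta2 promoter: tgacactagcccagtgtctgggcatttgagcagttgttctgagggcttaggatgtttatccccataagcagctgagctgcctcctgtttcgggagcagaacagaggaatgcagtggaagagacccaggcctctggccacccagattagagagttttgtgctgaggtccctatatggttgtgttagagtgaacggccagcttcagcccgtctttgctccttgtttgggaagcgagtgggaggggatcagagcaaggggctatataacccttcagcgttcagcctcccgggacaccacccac

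Acta1, skeletal α-actin, stood at 506, 517 and 419 normalized counts in the knockout, 15.2, 29.4 and 55.1 in the knockdown and 31.8, 62.0 and 62.9 in wild-type siGLO. The knockout was 14.2-fold above the knockdown (log2 3.83, SE 0.45, edgeR adjusted p = 4.5e-05), while the latter overlapped with wild-type siGLO. Myl9, a myosin light chain, stood at 401, 377 and 381 against 78.1, 99.3 and 92.9 in the knockdown (2.09, SE 0.22, adjusted p = 1.25e-05). Tagln, the actin-binding protein transgelin, stood at 2302, 2049 and 1831 against 256, 368 and 324, a 6.5-fold difference (2.70, SE 0.40, edgeR adjusted p = 0.000368). All 3 genes were apart in every library. Acta2, smooth-muscle actin, stood at 800, 562 and 714 against 103, 161 and 144. Its log2 difference of 2.34 had an SE of 0.79 and an edgeR adjusted p of 0.0708, and it no longer passed when any 1 of the 6 libraries was left out (adjusted p 0.109 to 0.196).

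Among the more abundant members, Tpm1, a tropomyosin, was 5234 ± 101 against 1971 ± 171 (n = 3; log2 1.41, edgeR adjusted p = 4.12e-07) and Cnn2, a calponin, 3519 ± 553 against 1154 ± 99.6 (1.61, adjusted p = 1.57e-06). Actg1, cytoplasmic γ-actin, rose by 0.76, and Srf itself by 0.58 (edgeR adjusted p = 0.00439). Actb differed by 0.26 (edgeR adjusted p = 0.37, or 0.0524 with the replicate block). Targets of the coactivator YAP were mixed. Amotl2 rose by 0.34 (edgeR adjusted p = 0.0795), a call lost without any one library other than knockout replicate 3 (adjusted p 0.122 to 0.250). Ctgf differed by 0.02 (edgeR adjusted p = 0.968), Cyr61 by 0.28 (0.315, or 0.0558 with the block), and Ankrd1 fell by 1.30 (0.0907), a call lost without any one of the 6 libraries (adjusted p 0.143 to 0.245).

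**Figure D4:**
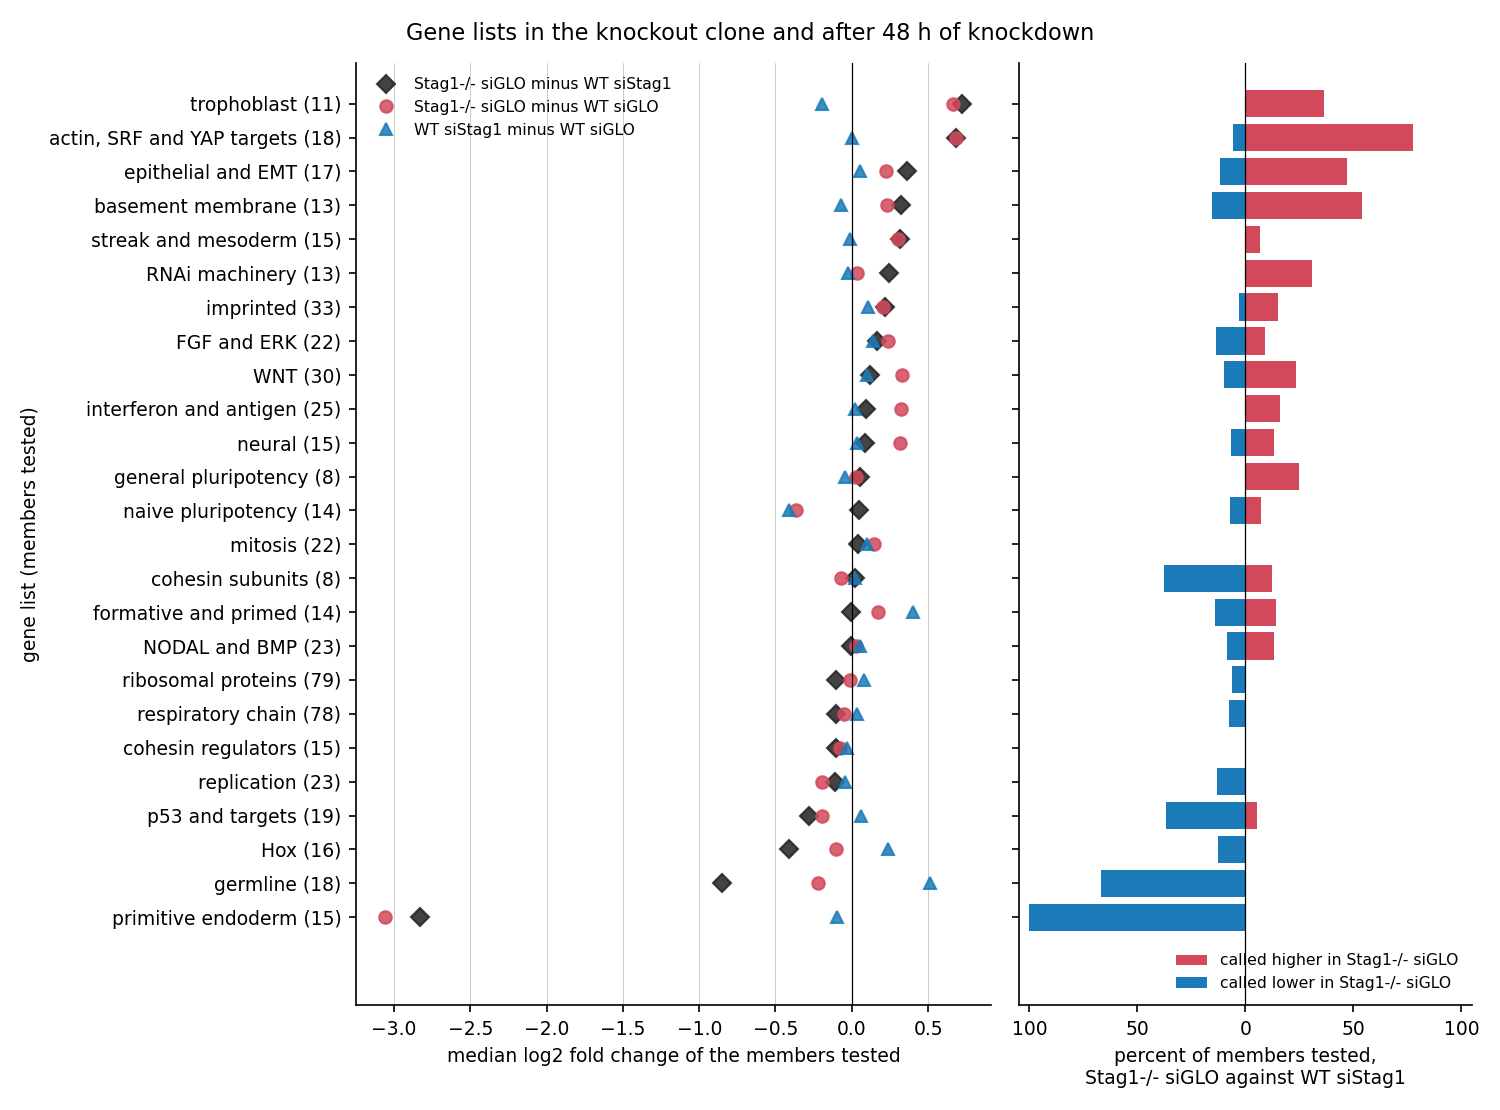
Gene lists with the number of members tested in parentheses; the left panel plots each list's median log2 fold change for Stag1-/- siGLO against wild-type siStag1 (diamonds) and for each of these groups against wild-type siGLO (circles and triangles), and the right panel the percent of members called higher (red, to the right) or lower (blue, to the left) in the first comparison. Primitive endoderm has a median of -2.83 and actin, SRF and YAP targets one of 0.68 in the first comparison, against -0.09 and -0.00 in wild-type siStag1 against wild-type siGLO.

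Keratins of simple epithelium and trophoblast were higher. Krt7 stood at 554, 531 and 372 normalized counts in the knockout, 59.4, 72.7 and 72.5 in the knockdown and 60.8, 121 and 89.0 in wild-type siGLO (knockout minus knockdown 2.82, SE 0.25, edgeR adjusted p = 2.32e-06). Krt18 stood at 3331, 3277 and 2072 against 698, 966 and 708 (1.87, adjusted p = 0.000139), and its partner Krt8 rose by 1.55 (adjusted p = 0.00389). These 3 and Gata3 (1.68, edgeR adjusted p = 0.0378) were the 4 called of 11 trophoblast genes tested (36.4%, against 8.22% of all genes called higher), and 7 were called with the replicate block. Gata3 was lost without knockout replicate 1 or 2 or knockdown replicate 2 or 3 (adjusted p 0.104 to 0.141). The defining factor Cdx2 was at 36.0 ± 17.1 against 11.0 ± 4.95 and did not pass (1.70, edgeR adjusted p = 0.112, or 0.0576 with the block).

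Of 17 epithelial and mesenchymal genes, 8 were higher in the knockout and 2 lower (58.8% called, against 16.0% of all genes), with a median of 0.36. Epcam, an adhesion molecule, rose by 0.55 (edgeR adjusted p = 0.000816) and Cldn6, a tight-junction claudin, from 1540 ± 172 to 2644 ± 71.9 (n = 3; 0.78, adjusted p = 0.002). Mmp9, a matrix metalloproteinase, rose by 1.37 (edgeR adjusted p = 0.00999) and Vim, vimentin, fell by 0.81 (adjusted p = 0.00294). Cdh1, E-cadherin, differed by 0.06 (edgeR adjusted p = 0.851). Of 13 basement-membrane genes outside primitive endoderm, 7 rose, among them Lama5 (0.47) and Nid1 (0.63). Another 2 fell, among them Lamc1 (-0.80), so that 69.2% were called, against 16.0% of all genes. The 9 calls became 5 without knockout replicate 1.

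WNT and FGF genes were split. Of 30 WNT genes tested, 7 rose and 3 fell (33.3% called, against 16.0% of all genes). The ligand Wnt7b stood at 684, 665 and 418 normalized counts in the knockout against 72.3, 119 and 89.0 in the knockdown (2.65, SE 0.41, edgeR adjusted p = 0.000503). Tcf7l1, a repressor of WNT targets in stem cells, stood at 1630, 1323 and 1496 against 702, 712 and 838 (0.98, edgeR adjusted p = 1.22e-05). Lef1, an activator of the same family, stood at 173, 96.4 and 148 in the knockout, 376, 312 and 358 in the knockdown and 264, 133 and 208 in wild-type siGLO (-1.32, edgeR adjusted p = 0.00593). Here the knockout overlapped with wild-type siGLO and the knockdown stood above both. Its rise in the knockdown against wild-type siGLO, 0.78, did not pass (edgeR adjusted p = 0.51) except with the replicate block (0.00721), and siStag1 raised it by 1.30 in Stag2-/- cells (adjusted p = 0.00722).

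Of 22 FGF and ERK genes, 2 rose and 3 fell (22.7% called, near the 16.0% of all genes), and 9 were called with the replicate block. The receptor Fgfr2 stood at 569, 549 and 578 normalized counts against 220, 165 and 220 (1.49, edgeR adjusted p = 3.83e-05), and the ligand Fgf15 rose by 1.02 (adjusted p = 0.00103). Fgfr3 (-1.30) and Fgfr4 (-0.81, or edgeR adjusted p = 0.109 without knockout replicate 1) fell, and the third was the co-receptor gene Klb, at the counts above. All 22 listed genes were tested, but Klb passed the expression filter only through groups in which it was high, and it is included in the 22.7%. In Stag2-/- cells siStag1 raised Fgfr2 by 1.40 on the log2 scale (edgeR adjusted p = 0.000153), and in wild-type cells the difference was 0.11 (adjusted p = 0.999). These siStag1 effects differed by 1.29 (edgeR adjusted p = 0.0567).

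Of 33 imprinted genes, expressed from 1 parental copy, 5 rose and 1 fell (18.2%, near the 16.0% of all genes, with 10 called with the replicate block). Igf2, the growth factor at chr7:142650766-142666816 (minus strand, mm10), stood at 3324, 3092 and 3192 normalized counts in the knockout, 533, 649 and 640 in the knockdown and 565, 817 and 709 in wild-type siGLO (2.40, SE 0.15, edgeR adjusted p = 8.93e-08). The 3 knockout libraries were above all others. H19, its reciprocally imprinted neighbour, differed by 0.07 (edgeR adjusted p = 0.901). In Stag2-/- cells Igf2 fell with siStag1, from 623 ± 84.1 to 253 ± 48.1 (n = 3; -1.29, edgeR adjusted p = 0.00012). Mest, a hydrolase gene expressed from the paternal copy, fell: 335, 390 and 467 in the knockout against 1773, 1720 and 1553 in the knockdown (-2.08, SE 0.17, edgeR adjusted p = 8.78e-07). In Stag2-/- siGLO it was at 3437 ± 812.

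Some of the strongest rises belonged to no list. The X-linked homeobox genes Rhox6 and Rhox9 stood at 386, 341 and 388 against 35.0, 70.8 and 58.0 (2.75, edgeR adjusted p = 3.6e-06) and at 173, 189 and 247 against 26.8, 32.2 and 32.9 (2.72, adjusted p = 1.25e-05). In Stag2-/- siGLO they were at 48.2 ± 6.09 and 37.2 ± 1.70, near the knockdown. Sept4, a septin, rose by 2.77 and 3830417A13Rik by 3.00, while Vgf, a neuropeptide precursor, stood at 469, 307 and 238 against 58.3, 66.2 and 42.6.

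The pluripotency factors that define the cells were close between the groups. Nanog differed by 0.16 (edgeR adjusted p = 0.825) and Pou5f1, which encodes OCT4, by -0.30 (adjusted p = 0.161, or 0.0267 with the replicate block). Sox2 (0.24, edgeR adjusted p = 0.0819) and Lin28a (0.37, 0.0708) were the 2 of 8 general factors called, where 16.0% of all genes were (4 with the block), and neither was called without knockout replicate 1 (0.205 and 0.227) or knockdown replicate 2 (0.196 and 0.141). Of 14 naive-state genes, 1 rose and 1 fell (14.3% called, near the 16.0% of all genes, with 5 called with the block). The gene that rose was Dppa3, an oocyte and naive-state factor, at 345, 468 and 576 against 150, 189 and 197 (1.37, edgeR adjusted p = 8.91e-05). Against wild-type siGLO the naive-state list had a median of -0.37 in the knockout and -0.41 in the knockdown. In the knockout 7 members were called lower and 1 higher, against 9.93% and 10.1% of all genes. In the knockdown 2 were called lower, against 0.145%, and 6 with the block, where 1.63% of all genes were called.

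Tbx3, a T-box factor of the naive state, was graded. It stood at 437, 352 and 417 normalized counts in the knockout, 1144, 1047 and 1318 in the knockdown and 2179, 2010 and 2239 in wild-type siGLO, with no overlap between the 3 groups. It was thus lower in the knockout than in the knockdown by 1.54 on the log2 scale (SE 0.13, edgeR adjusted p = 1.57e-06) and lower in the knockdown than in wild-type siGLO by 0.87 (adjusted p = 0.0225, or 0.106 without knockdown replicate 1 and 0.218 without replicate 2). In Stag2-/- cells it went from 824, 870 and 955 to 188, 283 and 244 with siStag1. Prdm14, a naive-state regulator, was near-level between knockout and knockdown at 209 ± 22.8 and 229 ± 4.26 (-0.13, edgeR adjusted p = 0.785), with wild-type siGLO at 443 ± 25.9. Tfcp2l1 differed by 0.27 (edgeR adjusted p = 0.22) and fell in the knockdown against wild-type siGLO by 0.71 (0.0481, and 0.148 to 0.294 when any one of those 6 libraries was left out).

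Among later fates, 2 of 14 formative and primed genes rose and 2 fell (28.6% called, against 16.0% of all genes), and 7 were called with the replicate block. Pou3f1, a factor of the primed epiblast, rose by 1.08 (edgeR adjusted p = 0.00894) and Sox3, of early neural ectoderm, fell by 1.28 (0.000795). Hand1, of extra-embryonic and lateral mesoderm, was the single call of 15 streak and mesoderm genes (6.67%, below the 16.0% of all genes, with 2 called with the block), at 100, 84.7 and 75.9 against 16.3, 15.6 and 13.5 (2.51, edgeR adjusted p = 0.00512). Of 15 neural genes 2 rose and 1 fell (20.0% called, near the 16.0% of all genes). Map2, a neuronal microtubule-associated protein, rose by 0.74 (edgeR adjusted p = 0.0363, or 0.120 to 0.149 without knockout replicate 2 or knockdown replicate 1 or 2) and Tubb3, a neuronal tubulin, by 0.52 (0.0822, or 0.124 to 0.268 without knockout replicate 1 or 2 or knockdown replicate 2 or 3). Sox1, a neural factor, stood at 57.1, 35.0 and 83.2 against 267, 210 and 247 (-2.03, edgeR adjusted p = 0.0403), a call lost without knockout replicate 1 or 2 (adjusted p = 0.127 and 0.145). Pax6 (0.43, edgeR adjusted p = 0.473) and Nes (0.09, 0.83) did not pass. Sdc3, a syndecan, rose by 1.36 (edgeR adjusted p = 4.21e-05), whereas Jam2 (0.12), Tdh (-0.22) and Laptm5 (-0.19) did not pass. In the NODAL and BMP list 3 of 23 rose, Id2 by 1.21, Lefty2 by 1.10 and Lefty1 by 0.73, and 2 fell (21.7% called, near the 16.0% of all genes, with 9 called with the block). Without knockout replicate 1, 3 of these 5 calls were made, and Lefty1 was lost there (edgeR adjusted p = 0.107) and without knockdown replicate 2 (0.133). Of the 12 genes of the fibroblast list, which would mark feeder cells, 4 (Dcn, Lum, Prrx1 and Fap) had at most 3 counts in each of the 6 libraries. The list summed to 645 to 813 normalized counts in the knockout and 521 to 645 in the knockdown. Of its 6 members tested 2 were called (33.3%, against 16.0% of all genes). With the replicate block 4 were called, where 26.5% of all genes were. Col1a1 rose by 1.29 (edgeR adjusted p = 0.0296, or 0.124 without knockout replicate 1 and 0.110 without knockdown replicate 1) and Thy1 fell by 0.63 (0.0557, or 0.106 to 0.159 without any one library other than knockout replicate 2).

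The genes that did respond to 48 h of siStag1 were followed into the knockout. Calcoco2, an autophagy receptor, stood at 156, 106 and 119 normalized counts in the knockout, 138, 85.5 and 82.2 in the knockdown and 347, 292 and 205 in wild-type siGLO. The knockout and knockdown libraries were below those of wild-type siGLO and overlapped with each other (0.33, edgeR adjusted p = 0.422). In the knockdown it fell by 1.47 against wild-type siGLO (edgeR adjusted p = 0.0306), and in Stag2-/- cells siStag1 lowered it by 1.62 (adjusted p = 0.00106). Abca1, a cholesterol exporter, stood at 263, 237 and 228 in the knockout, 302, 280 and 244 in the knockdown and 482, 480 and 499 in wild-type siGLO, and Tns1, a tensin of focal adhesions, at 148, 125 and 128, 211, 207 and 208, and 350, 365 and 417. Tns1 was lower in the knockout than in the knockdown (-0.64, edgeR adjusted p = 0.0145), and Abca1 did not differ beyond the spread (-0.18, 0.575).

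Among genes that rose, some kept this order. Foxi3, a forkhead factor, stood at 264, 188 and 204 in the knockout, 167, 166 and 127 in the knockdown and 77.6, 62.0 and 52.3 in wild-type siGLO. Hs6st2, a heparan sulfate sulfotransferase, stood at 203, 257 and 244, 175, 175 and 148, and 89.8, 81.3 and 62.9. Both passed between knockdown and wild-type siGLO (1.26 and 1.09, edgeR adjusted p = 0.0328 and 0.0543) and missed the threshold between knockout and knockdown (0.51 and 0.50, 0.107 and 0.118) except with the replicate block (0.0225 and 0.0289). Prickle1, of planar cell polarity, was at 159 ± 38.6, 168 ± 25.9 and 85.6 ± 5.09 in the same order. Serf1 went the other way, at 42.3, 31.2 and 46.1 in the knockout, 79.3, 79.1 and 103 in the knockdown and 43.9, 35.6 and 44.5 in wild-type siGLO, so that only the knockdown was high. Each of these calls between knockdown and wild-type siGLO was lost when at least 1 library was left out: Calcoco2 without knockdown replicate 2 or 3 or wild-type siGLO replicate 2 (adjusted p 0.133 to 0.218), Tns1 and Foxi3 at adjusted p of 0.136 to 0.237, and Abca1, Hs6st2, Prickle1 and Serf1 at 0.121 to 0.414.

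The Stag2-/- pair shares no library with wild-type siStag1 against siGLO and gave a second reading of the acute genes. siStag1 changed 924 genes there (6.37%), 432 upward (2.98%) and 492 downward (3.39%). All 15 genes that rose in wild-type cells had a log2 change above 0, 11 of them called higher, with a median of 0.60. Of the 20 that fell, Stag1 aside, 19 were below 0 and 17 called lower, with a median of -0.79. Across all genes tested the median was 0.0060. The change with siStag1 itself differed between wild-type and Stag2-/- cells at 23 genes (0.159%).

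The genes that separated knockout from knockdown were read in the same libraries. In Stag2-/- cells siStag1 gave a median log2 change of 0.029 at the 1192 genes higher in the knockout, of which 71 were called higher (5.96%) and 97 lower (8.14%), and of 0.024 at the 1134 lower genes, of which 67 were called higher (5.91%) and 53 lower (4.67%), against 2.98% higher and 3.39% lower among all genes. Stag2-/- siGLO against wild-type siGLO, also without a shared library, gave medians of 0.13 and -0.30. There 350 of the 1192 were called higher (29.4%, against 13.9% of all genes) and 481 of the 1134 lower (42.4%, against 14.4%).

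Chromosome 8 stood apart from the other chromosomes. The median log2 difference of its 759 tested genes between knockout and knockdown was -0.19, with 76.2% of the genes below 0, 188 called lower and 31 higher (28.9% called, against 16.0% overall). Medians of the other chromosomes lay between -0.066 (X) and 0.038 (7). By replicate number the chromosome 8 median was -0.146, -0.223 and -0.226. Against wild-type siGLO it was -0.193 in the knockout, 0.0011 in the knockdown and -0.206 in Stag2-/- siGLO. Acta1, which rose, lies on this chromosome, as do the replication gene Gins2 and the ribosomal protein gene Rpl13, which fell. DNA copy number was not measured, and its part in these values was not tested.

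**Figure D5:**
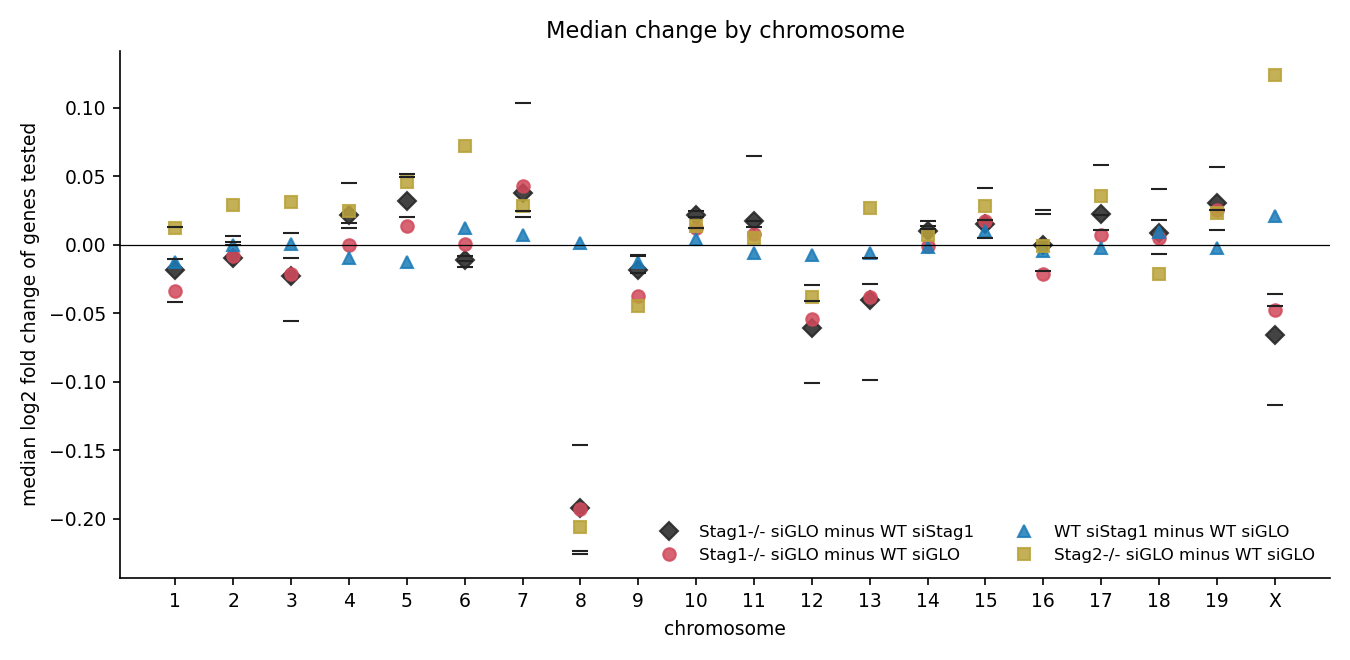
Median log2 fold change of the tested genes (vertical) of each chromosome (horizontal) for Stag1-/- siGLO against wild-type siStag1 (diamonds) and for Stag1-/- siGLO (circles), wild-type siStag1 (triangles) and Stag2-/- siGLO (squares) against wild-type siGLO; short dashes give the first comparison by replicate number. Chromosome 8 sits at -0.19 in the first comparison, where the median of no other chromosome is below -0.066.

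The remaining lists varied in their share of calls. Of 13 genes of the small-RNA machinery, which siRNA uses, 4 rose (30.8%, against 8.22% of all genes), led by Dgcr8 (0.47, edgeR adjusted p = 0.0432), but none without knockout replicate 1 or knockdown replicate 2 or 3, 1 without knockout replicate 2 and 2 without knockdown replicate 1. Of 25 interferon and antigen-presentation genes 4 rose and 0 fell in edgeR, 16.0% called as among all genes, with Oasl2 at 102 ± 24.6 against 24.9 ± 8.85 (2.05, edgeR adjusted p = 0.00206), but 1 was called without knockdown replicate 2 and 2 without knockout replicate 1 or knockdown replicate 3. In edgeR and in DESeq2 alike, 0 of 15 genes of the integrated stress response and 0 of 22 mitotic genes were called (0 and 2 at an unadjusted p under 0.05, 4 and 2 with the replicate block). Of 78 respiratory-chain genes 6 fell, a share of 7.69% that is near the 7.82% of all genes (13 with the replicate block), most of all Atp5b, the ATP synthase β subunit, at 18895, 17513 and 17576 against 33588, 34652 and 35534 (-0.94, edgeR adjusted p = 4.12e-07). With knockout replicate 3 left out, 16 respiratory-chain genes were called, and 3 without knockout replicate 2 or knockdown replicate 2 or 3. Of 79 ribosomal protein genes 5 fell (6.33%, below the 7.82% of all genes), including Rpl22 (-0.97), with 18 called without knockout replicate 3 and 3 without knockout replicate 1 or 2 or knockdown replicate 2 or 3. Of 15 genes of serine, glycine and threonine metabolism 3 were called (20.0%, near the 16.0% of all genes) and 6 with the replicate block. Gldc rose (0.63, edgeR adjusted p = 0.000983) and 2 fell, among them Gcat (-0.75, adjusted p = 0.000105), which acts next to Tdh in threonine breakdown.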

How the data were processed

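RNA-seq was analysed in 15 poly-A libraries of 5 groups of 3. Reads were aligned by the authors with STAR to mm10, and a table of raw counts per gene was deposited for each library. The counting tool, annotation and strand setting are not given in the sources used here, so reads of overlapping, antisense or near-identical genes may be misassigned. The submitters' processing notes also name DESeq2, which the authors used for their own comparisons. The 4 summary lines of each table were left out. Of 23412 gene names, 23039 (98.4%) were placed with GENCODE M21.

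Counts were tested with edgeR 4.0.16 in R 4.3.3: filterByExpr (minimum count 10, minimum total 15), TMM, and glmQLFit and two-sided glmQLFTest over all 15 libraries with 1 coefficient per condition. Adjusted p-values are Benjamini-Hochberg over the 14508 genes tested, with a threshold of 0.1, and the SE is the log2 fold change over the square root of F. Means are given with the SD of 3 libraries, and the number of libraries limits the precision more than the depth of 14982560 or more counts in each.

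The same replicate numbers occur in every group of the labels. Between the 2 groups compared, deviations from the group mean correlated at 0.143 to 0.410 for equal numbers (mean 0.278 over 12001 genes) and at -0.139 on average for unequal ones, so the numbers were taken as pairs and a fit with the replicate block is given where it changes the call of a named gene between these 2 groups or moves a described count of such calls by over 1.5 times. No libraries of a group agreed within sampling noise (chi-square per degree of freedom of 4.70 to 26.8).

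Named genes were the cohesin genes, the genes the study names, the 10 largest rises and 10 largest falls with a mean of at least 50 normalized counts and no overlap (5 each for wild-type siStag1 against siGLO), and up to 4 called members of each of 35 lists. The comparison and lists were chosen with earlier results of these data known, and other genes were named after their values were seen. Some genes that the rule brings in are not reported here. On simulated counts for the main comparison, edgeR called 135 of 198 genes changed 2-fold and 13 of 14118 unchanged ones. The simulated libraries were drawn independently, with no effect shared by replicate number, and far fewer genes changed than were called in the data. These rates therefore need not hold for the real comparison. DESeq2 1.42.0, other normalizations and filters, a stricter threshold, fits on fewer libraries and each library left out were tried as alternatives.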

Additional observations from a re-analysis of the deposited data

Results flagged for a closer look

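The effect of siStag1 differed between Stag2-/- and wild-type cells at 9 of the genes named or listed, by a test of the difference itself over all 5 groups. The lists held 697 distinct tested genes, and 23 of all 14508 genes tested (0.159%) were called. The named genes include those with the largest changes with siStag1 in wild-type cells. For Tbx3 the log2 change with siStag1 was -0.87 in wild-type and -1.89 in Stag2-/- cells, a difference of -1.02 (edgeR adjusted p = 0.044). For Tns1 it was -0.85 in wild-type and 0.25 in Stag2-/- cells, a difference of 1.11 (edgeR adjusted p = 0.068). Tfcp2l1 fell in both, by 0.71 and 2.47, a difference of -1.76 (edgeR adjusted p = 0.000703). The other genes were not called in wild-type cells. Fgfr2 changed by 0.11 in wild-type and 1.40 in Stag2-/- cells, a difference of 1.29 (edgeR adjusted p = 0.0567), and Igf2 by -0.20 and -1.29, a difference of -1.10 (adjusted p = 0.0596). Tdh, the threonine dehydrogenase of stem cells, changed by -0.30 and -1.80, a difference of -1.50 (edgeR adjusted p = 0.0145). Among further genes of naive pluripotency, the differences were -1.49 for Esrrb (edgeR adjusted p = 0.00398), -1.11 for Klf4 (0.0676) and -0.90 for Nr5a2 (0.0444).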

How the results depend on the processing

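Between Stag1-/- siGLO and wild-type siStag1, 2068 to 2864 genes were called under DESeq2, other normalizations, other filters and a fit on only the libraries compared, 1614 at an adjusted p under 0.05, 1992 without chromosomes 8 and 15, 3850 with the replicate block, and 1464 to 2404 with 1 library left out. Between wild-type siStag1 and siGLO the count was 133 in DESeq2, 126 with only the libraries compared, 22 at an adjusted p under 0.05 and 1 to 15 with 1 library left out. For Stag1-/- siGLO against wild-type siGLO it was 1915 to 2748 with 1 library left out. For siStag1 in Stag2-/- cells it was 548 at an adjusted p under 0.05, and for the difference between the siStag1 effects 102 in DESeq2. The share of called genes at which wild-type siGLO lay nearer to the knockdown was 88.3% with only the libraries compared, 91.8% at an adjusted p under 0.05 and 88.5% to 92.4% with 1 library left out. In the fit with the replicate block, the pairing gave 236 calls for wild-type siStag1 against siGLO, 4443 for Stag1-/- siGLO against wild-type siGLO, 2049 for siStag1 in Stag2-/- cells, 138 for the difference between siStag1 effects, and a share of 87.5%; the cause of these shifts was not tested. Signs turned only for genes not called, with 1 library left out, where the log2 difference ranged from -0.0056 to 0.057 for Espl1, -0.034 to 0.21 for Nes, -0.29 to 0.033 for Prickle1, -0.14 to 0.019 for Sgol1, -0.25 to 0.042 for Sgol2, -0.13 to 0.050 for Smc3 and -0.082 to 0.10 for Wapal. Of the knockout minus knockdown values of named genes under alternatives, 1615 stayed on their side of the threshold, 117 lost and 18 gained a call. Among list counts 417 stayed within 1.5 times and 108 did not. Without genes of chromosomes 8 and 15, 1 of the 4 trophoblast calls was made, since the 3 keratin genes lie on chromosome 15. Genes under the expression filter could not be read at this depth.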
